A study of Mus musculus with 36 samples.

Results

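The genes described here are Il2ra, Il2rb and Il2rg, which encode the alpha, beta and gamma chains of the interleukin-2 receptor, and Stat3, which encodes a transcription factor that cytokine receptors activate. They were chosen by their symbols, as 4 genes of the 46078, 35896 and 18721 genes listed in 3 RNA-seq tables, and they were followed through all conditions of those tables and through 6 lists of Pax5 ChIP–seq peaks. The choice was made because Il2ra marks pre-B cells and was lower without Sirt7 and because Il2rb was repressed by Pax5. The values behind these statements are therefore given below as a description without a test.

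The study asked how the deacetylase SIRT7 acts on the B cell transcription factor Pax5 during B cell development, and RNA was measured in 24 libraries, 2 for each of 12 groups. The first table held pro-B cells (CD43+) and pre-B cells (CD43-), both IgM-, sorted from the bone marrow of wild-type and Sirt7-/- mice on the 129Sv background, with each mouse giving a library of both stages. The second held Pax5-/- B cell progenitors on the C57BL/6 background carrying an empty retroviral vector (EV) or a vector with Pax5 WT or one of its mutants, Pax5 K198Q and Pax5 K198R, which carry glutamine or arginine in place of a lysine whose acetylation was under study. The third held pro-B cells in culture, also of the 129Sv background. The wild type carried EV alone, and the Sirt7-/- cells carried EV or a vector for either Pax5 WT or Pax5 K198R.

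The Sirt7-/- mice carried a germline deletion of several exons, so that every cell of the animal lacked the gene, and the study used adult mice of both sexes throughout, except for the Pax5-/- progenitors. All cells of the second table were Pax5-/-, their EV controls included, and the labels call them bone marrow pro-B cells, whereas the methods of the study describe Pax5-/- progenitors from fetal liver. Transduced cells were grown on mitomycin C-inactivated OP9 stromal feeder cells with IL-7, SCF and FLT3-L, and the vectors also encoded a marker, human CD4 or GFP. The peak lists came from Pax5-/- cells given one of the 3 forms of Pax5, 2 lists for each form, and the peak names in the second Pax5 K198R list carry another replicate number. Replicates were separate mice for the sorted cells and were made on different days. The study counts each replicate as a mouse in experiments that involve mice, and whether this covers the transduced cultures is not stated, so that their p-values may measure technical spread. RNA was measured in bulk, so that fewer cells of a type and less RNA per cell cannot be told apart.

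The alpha chain, known as CD25, raises the affinity of the receptor for IL-2 but sends no signal of its own. Signals pass through the beta chain, which is shared with the IL-15 receptor and is a hallmark of NK cells and of some T cells, and through the gamma chain, which is shared with the receptors for IL-4, IL-7, IL-9, IL-15 and IL-21. These chains bind the kinases JAK1 and JAK3, which phosphorylate STAT proteins. In mouse bone marrow CD25 on the cell surface is a standard mark of the pre-B stage, the gamma chain serves IL-7, on which pro-B cells depend, and STAT3 is best known for its part in signals from IL-6, IL-10 and related cytokines.

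The 4 genes lie on different chromosomes of the mouse genome (mm10). Il2ra (ENSMUSG00000026770) occupies chr2:11642807-11693193 on the plus strand, Il2rb (ENSMUSG00000068227) chr15:78479256-78495271 on the minus strand, Il2rg (ENSMUSG00000031304) chrX:101264378-101268255 on the minus strand and Stat3 (ENSMUSG00000004040) chr11:100885098-100939540 on the minus strand. The following 3 sequences of 201 bases were chosen because each carries the Pax5 peak seen in most lists within 20 kb of the start of one of these genes. They are given on the plus strand, and the capitals mark the 21 bases centred on the summit of the peak with the highest fold enrichment over input. The first lies 15.1 kb upstream of the start of Il2rb, between genes, the second 132 bp upstream of the start of Stat3, and the third 19.5 kb upstream of Il2ra, between genes and 2993 bp from the start of the transcript Gm17490.
Il2rb upstream, chr15:78510241-78510441: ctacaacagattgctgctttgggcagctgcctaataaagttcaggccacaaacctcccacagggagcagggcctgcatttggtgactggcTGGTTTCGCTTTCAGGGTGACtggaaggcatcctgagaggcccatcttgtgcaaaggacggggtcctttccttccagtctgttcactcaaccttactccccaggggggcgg
Stat3 promoter, chr11:100939572-100939772: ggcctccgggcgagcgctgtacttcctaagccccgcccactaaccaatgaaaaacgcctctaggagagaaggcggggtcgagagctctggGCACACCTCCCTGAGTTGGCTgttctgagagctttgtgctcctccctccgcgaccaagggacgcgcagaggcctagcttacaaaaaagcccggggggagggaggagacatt
Il2ra upstream, chr2:11623171-11623371: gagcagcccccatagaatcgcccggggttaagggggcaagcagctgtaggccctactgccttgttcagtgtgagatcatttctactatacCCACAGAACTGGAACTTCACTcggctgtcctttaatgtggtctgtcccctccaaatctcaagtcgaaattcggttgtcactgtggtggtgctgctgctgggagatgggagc

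A core of the Pax5 motif, searched as GCNTGAC on both strands, and a palindromic STAT motif, searched as TTCNNNGAA, which reads the same on either strand, were found in none of these 3 windows. Between 14.5% and 18.4% of all peak windows of the same length in a list held the Pax5 core, and between 5.69% and 6.44% held the STAT motif. The promoters of Il2ra, Il2rg and Stat3 in RefSeq, 300 bases each, held neither, whereas 10.7% of 32851 promoters held the Pax5 core and 8.3% the STAT motif.

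Before the receptor genes were compared, the targeted genes and the stage of the cells were checked. In pro-B cells Sirt7 stood at 2692 and 2533 normalized counts in the wild type and at 363 and 366 in Sirt7-/- mice. In pre-B cells the wild type had 5613 and 5219 against 1066 and 821. The normalized count is the number of reads estimated for a gene, scaled by the authors between libraries. In the sorted cells 1 factor per library accounted for the scaling, which it did not in the other tables. Sirt7 was lower by 2.84 and 2.53 on the log2 scale (limma with Benjamini-Hochberg adjustment, adjusted p = 0.00292 and 0.00931), and in culture with EV by 1.60 (limma, adjusted p = 0.0251). Pax5 RNA in Pax5-/- cells with EV was 2201 and 2103 normalized counts. It was 6458 and 6152 with Pax5 WT, 8918 and 8963 with Pax5 K198Q and 21162 and 16609.5 with Pax5 K198R, so that the 3 forms differed in the level of their own RNA. Among the cultured cells of the third table Pax5 RNA was 23862 and 27134 in wild-type and 25995 and 37114 in Sirt7-/- cells with EV, 43024 and 43259.6 with Pax5 WT and 38690.0 and 45426 with Pax5 K198R. In Pax5-/- cells a difference between forms and a difference in the amount of Pax5 RNA cannot be told apart. In the third table the libraries with Pax5 WT and Pax5 K198R overlapped in that amount. RNA does not give the amount of Pax5 protein. In transfected cells the study reports less protein for Pax5 K198Q and more for Pax5 K198R than for Pax5 WT. The part of Pax5 that the deletion removed is not given in the sources used here, and its RNA in EV cells does not check the knockout.

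The cell type label of 4 of the 8 sorted libraries names the other stage than their title. Dntt, the terminal transferase of pro-B cells, was at 19431.5 or above in the 4 libraries titled pro-B and at 3838 or below in the 4 titled pre-B, and the titles were used. In Pax5-/- cells, of 9 tested genes in a list of B cell progenitor markers, 8 rose against EV under Pax5 WT, 7 under Pax5 K198Q and 8 under Pax5 K198R, where 2.25%, 0.869% and 3.87% of all genes tested rose.

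Il2ra, the alpha chain, increased from the pro-B to the pre-B stage in sorted cells and, stage by stage, was lower without Sirt7 than in the wild type. The study itself names Il2ra, from a gene set enrichment analysis, among genes mainly repressed by SIRT7, which is the opposite direction. Wild-type pro-B cells had 3760 and 3339 normalized counts, against 1648 and 1593 without Sirt7. Wild-type pre-B cells had 25620 and 26038, against 17564 and 16329 without Sirt7. Each pair lay apart from every other pair, in the order Sirt7-/- pro-B, wild-type pro-B, Sirt7-/- pre-B and wild-type pre-B.

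The mean of Il2ra in Sirt7-/- cells was 0.457 times that of the wild type in pro-B cells and 0.656 times in pre-B cells, or −1.13 and −0.61 on the log2 scale after adding 1. From pro-B to pre-B cells it was 7.28 times as high in the wild type and 10.5 times as high in Sirt7-/- cells. The difference between these stage effects was 0.52 on the log2 scale. These differences chose the gene and are not tested here.

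Markers of other cells also differed in level between these libraries. The summed normalized counts of 8 immature and mature B cell markers, with Cd74 the most abundant on average, were 61220 and 68410 in wild-type and 77098 and 58458 in Sirt7-/- pro-B cells, and 347536 and 214599 against 515711 and 345190 in pre-B cells. In Sirt7-/- pre-B cells all 8 had a higher mean log2 level than in the wild type, with a median difference of 0.70, and limma called 0 of them (5 at an unadjusted p under 0.05), edgeR 0 and DESeq2 4. The sums of 9 myeloid markers, with Itgam the most abundant on average, were 33697 and 24645 against 26961 and 9593 at the pro-B stage and 15285 and 14949 against 11551 and 10736 at the pre-B stage. All 9 were lower on the log2 scale in Sirt7-/- cells at both stages, with medians of −1.08 and −1.43, and limma called 0 of them (0 and 3 at an unadjusted p under 0.05), edgeR 0 and 0 and DESeq2 0 and 2. The part of these cells in the level of Il2ra was not tested.

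**Figure D1:**
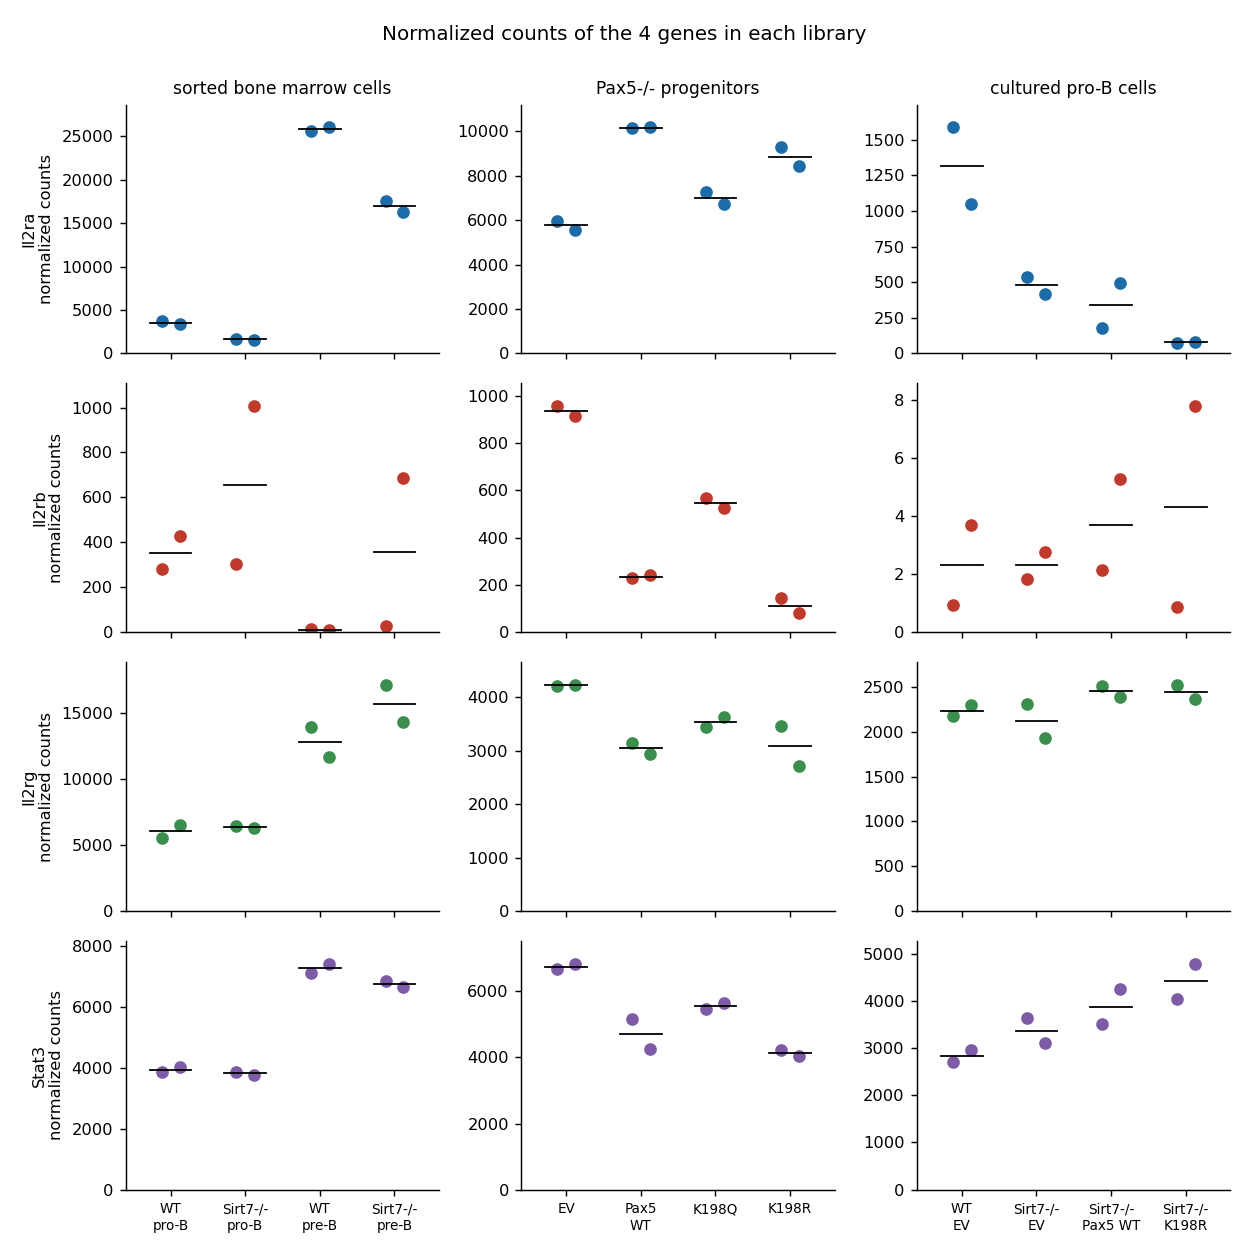
Normalized counts of Il2ra, Il2rb, Il2rg and Stat3 in each of the 24 libraries, with a panel for each gene and table, 2 points per group and a line at each group mean. Il2ra was between 16329 and 26038 in sorted pre-B cells and at 3760 or below in sorted pro-B cells, and Il2rb was under 10 in every library of the third table.

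Among Pax5-/- cells Il2ra was 5980.0 and 5550.1 normalized counts with EV, and 10146 and 10179 with Pax5 WT. With Pax5 K198Q it was 7244 and 6744, and with Pax5 K198R 9281 and 8415. The pairs did not overlap and stood in the order EV, Pax5 K198Q, Pax5 K198R and Pax5 WT. The ratio to EV was 1.76 for Pax5 WT, 1.21 for Pax5 K198Q and 1.53 for Pax5 K198R, and the comparisons with EV, which share their EV libraries, are given as a description.

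Between the forms, Il2ra was lower with Pax5 K198Q than with Pax5 WT by 0.54 on the log2 scale (SE 0.09, 95% interval −0.75 to −0.33), with a limma adjusted p of 0.238, and 0.0297 when the replicate number was a block. It was higher with Pax5 K198R than with Pax5 K198Q by 0.34 (SE 0.09, interval 0.13 to 0.55, limma adjusted p = 0.0845, 0.0107 with the block). Both calls hold only with the block, and same-numbered libraries did deviate together in this table. Pax5 K198R and Pax5 WT differed by −0.20 (interval −0.41 to 0.01, limma adjusted p = 0.417). Il2ra was highest with Pax5 WT and Pax5 RNA with Pax5 K198R, and the amount of Pax5 protein behind these libraries is not known.

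The third table was scaled separately, and in it Il2ra was 1587 and 1049.8 in wild-type cells with EV and 538 and 416 in Sirt7-/- cells with EV. In Sirt7-/- cells it was 179 and 496 with Pax5 WT and 74.7 and 79.2 with Pax5 K198R. The wild-type pair was above and the Pax5 K198R pair below all others, and the 2 Pax5 WT libraries, 2.77-fold apart, lay on either side of one library with EV.

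Pax5 K198R lowered Il2ra against EV by 2.61 on the log2 scale in Sirt7-/- cells (SE 0.44, 95% interval −3.62 to −1.60), to 0.161 times its level (limma, adjusted p = 0.0196). This was the only one of the members past the threshold in the third table, and the call was lost without any 1 of the 4 libraries (limma, adjusted p between 0.0722 and 0.121). Wherever leaving out libraries left a group with 1, here and for the other members, that library was assumed to vary like those of the other groups. Sirt7-/- cells with EV were lower than wild-type cells with EV by 1.45 (SE 0.44, interval −2.45 to −0.44), which did not pass (limma, adjusted p = 0.266). Pax5 WT differed from EV by −0.67 (interval −1.68 to 0.34, limma adjusted p = 0.709), and Pax5 K198R from Pax5 WT by −1.94 (interval −2.95 to −0.93, limma adjusted p = 0.143). Without the first Pax5 WT library the last difference was −2.67 and was called (limma, adjusted p = 0.0459).

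Between the groups of the third table, the summed level of later B cell markers was higher where the mean of Il2ra was lower. The summed normalized counts of the listed genes of immature and mature B cells, 7 of 8 in number with Ighd the most abundant, were 1381 and 1608 in wild-type cells with EV, and 4761 and 7815 in Sirt7-/- cells with EV. They were 10799 and 23255 with Pax5 WT and 21696 and 53688 with Pax5 K198R, and 4 genes of the list, Cd74, H2-Aa, H2-Ab1 and Ighd, rose with Pax5 K198R against EV, where 2.09% of all genes rose. Of the 7 tested, limma called 1, Cd22, higher in Sirt7-/- than in wild-type cells, 0 for Pax5 WT with EV and 0 for Pax5 K198R with Pax5 WT, with 4, 3 and 4 at an unadjusted p under 0.05. In the first of these comparisons 56 of 13651 genes were called higher. Within the Pax5 WT and the Pax5 K198R pair the library with more of these markers had more Il2ra, and within both pairs with EV it had less. The summed counts of 15 T cell markers, of which 10 were listed with Lat the most abundant, were 5186 and 3383 in wild-type and 3053 and 1331 in Sirt7-/- cells with EV, 1571 and 652 with Pax5 WT and 937 and 492 with Pax5 K198R. These sums rest mainly on Lat and Lck, and 3 of the 5 T cell markers tested were not lower in Sirt7-/- than in wild-type cells with EV. Lck, a kinase of T cell receptor signalling, was the 1 of 5 that fell with Pax5 K198R against EV, by 2.83 (limma, adjusted p = 0.0461), where 2.74% of all genes fell. The summed counts of the OP9 stroma list, of which 7 of 8 genes were listed with Col1a2 the most abundant, were 3192 and 2338 in wild-type and 2239 and 3270 in Sirt7-/- cells with EV, 3617 and 6596 with Pax5 WT and 2649 and 5216 with Pax5 K198R. All 6 stroma markers tested were higher than with EV on the log2 scale for both forms, with medians of 0.75 and 0.56. Of 6 plasma cell markers, all of them tested, Mzb1, Prdm1 and Jchain fell with Pax5 K198R against EV, with a median of −0.83 over the list. None of these lists was tested for its part in the values of Il2ra.

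Il2rb, the beta chain, was high in Pax5-/- cells with EV, at 955 and 914 normalized counts, and lower with each form of Pax5. It was 567 and 524 with Pax5 K198Q, 229.7 and 240.2 with Pax5 WT and 144 and 80.4 with Pax5 K198R. No pair overlapped another, and the order was EV, Pax5 K198Q, Pax5 WT and Pax5 K198R. Pax5 RNA was higher with Pax5 K198Q than with Pax5 WT, and the amount of Pax5 protein behind these libraries is not known. The ratio of Il2rb to EV was 0.584 with Pax5 K198Q, 0.252 with Pax5 WT and 0.120 with Pax5 K198R. On the log2 scale these were −0.78, −1.99 and −3.11. Pax5 K198Q stood above Pax5 WT by 1.21 and Pax5 K198R below Pax5 WT by 1.12 and below Pax5 K198Q by 2.33 on that scale. The gene was chosen for this pattern, and no test is given.

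**Figure D2:**
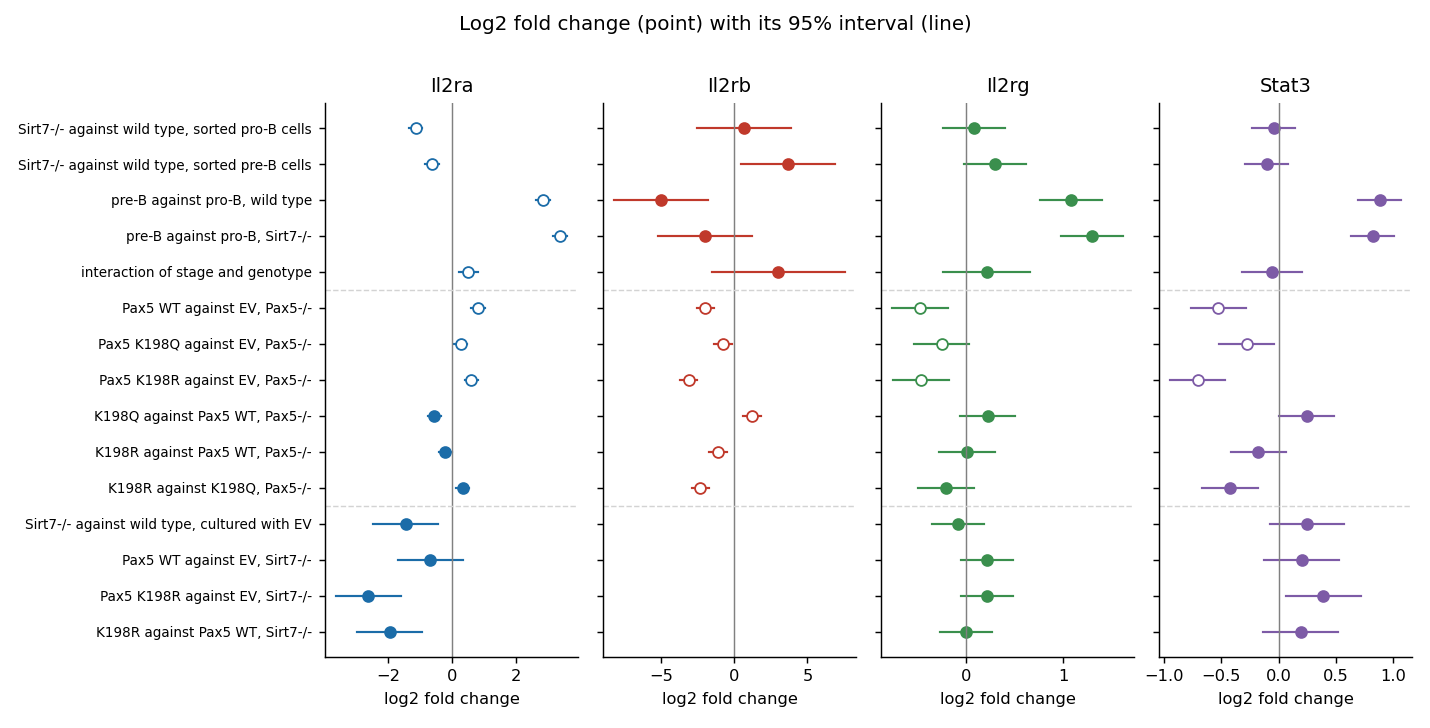
Log2 fold changes of the members in each comparison after adding 1, with 95% intervals from limma, filled points for tested differences and open points for those that chose the genes. Il2rb is missing where it failed the filter on low values. Il2rb lay at −3.11 with Pax5 K198R against EV in Pax5-/- cells, and Il2ra lay at −2.61 with Pax5 K198R against EV in Sirt7-/- cells.

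Part of the genes that NK cells use were lower in Pax5-/- cells with Pax5 K198R. The summed normalized counts of 13 NK cell and innate lymphoid markers, all 13 of them listed and with Id2, an inhibitor of E proteins, the most abundant, were 2165 and 1672 with EV and 1323 and 1156 with Pax5 K198Q. They were 891 and 822 with Pax5 WT and 639.6 and 314 with Pax5 K198R. The NK receptors Ncr1 and Klra1 were listed at 0 in all 8 libraries. Nkg7, a granule protein, was 468 and 569 with EV and 109 and 77.7 with Pax5 K198R. Of the 7 markers tested, 4 fell with Pax5 K198R against EV, among them Nkg7 and Id2, where 6.05% of all genes fell. With Pax5 WT 1 of 7 fell, Nkg7, and with Pax5 K198Q limma called 0 (1 at an unadjusted p under 0.05). Of all 13345 genes 134 fell with Pax5 WT and 7 with Pax5 K198Q. The sums rest mainly on Id2 and Nkg7, and Gzma, a granzyme, was 8.83 and 18.5 with EV and 21.5 and 24.5 with Pax5 K198Q. The sums of the T cell markers, 13 of 15 listed with Lck the most abundant, were 5245 and 6026 with EV, 4451 and 4868 with Pax5 WT, 4919 and 4786 with Pax5 K198Q and 3712 and 4042 with Pax5 K198R. Of the 7 tested, Cd3g, Cd28 and Zap70 fell with Pax5 K198R against EV. The part of such cells in the level of Il2rb was not tested.

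Among the sorted cells Il2rb was the least even of the 4 genes within a group. Wild-type mice had 279.5 and 427 normalized counts at the pro-B stage and 12.5 and 7.65 at the pre-B stage. Sirt7-/- mice had 304 and 1007 at the first and 27.7 and 685 at the second stage, with the higher value of each pair in the second mouse. The libraries of the wild type at either stage did not overlap, whereas the Sirt7-/- pre-B pair spanned both the wild-type pro-B values and was 24.7-fold apart.

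Il2rb fell from pro-B to pre-B cells in the wild type by 5.0 on the log2 scale (SE 1.35, 95% interval −8.21 to −1.79), to 0.0286 times its level (limma, adjusted p = 0.0246). The call was lost without any 1 of the 4 libraries (limma, adjusted p between 0.0729 and 0.109). In Sirt7-/- cells the difference was −1.98 (SE 1.35, interval −5.19 to 1.22, limma adjusted p = 0.295). Without the second Sirt7-/- pre-B library it was −4.27 (limma, adjusted p = 0.00929), and without both libraries of that mouse −3.41 (limma, adjusted p = 0.0211). The stage effects of the genotypes differed by 3.02 (SE 1.91), which did not pass (limma, adjusted p = 0.955). The difference lay between 0.73 and 5.31 when 1 library was left out and was 1.59 without the second Sirt7-/- mouse. With a block for the mouse, the limma adjusted p of the stage effect was 0.00593 in the wild type and 0.09 in Sirt7-/- cells.

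Between genotypes Il2rb differed by 0.68 at the pro-B stage (SE 1.35, 95% interval −2.53 to 3.89, limma adjusted p = 0.992). At the pre-B stage the difference was 3.70 (SE 1.35, interval 0.49 to 6.90, limma adjusted p = 0.302). The pre-B mean was 35.3 times the wild-type mean, and this rested on the second mouse. Without both libraries of that mouse the difference was −0.18 in pro-B cells (limma, adjusted p = 1) and 1.41 in pre-B cells (limma, adjusted p = 0.475). Without the first Sirt7-/- pre-B library it was 5.99 and was called (limma, adjusted p = 0.0374). DESeq2 on the recovered whole reads also called the pre-B difference (5.14, adjusted p = 0.0124), and edgeR did not (5.13, adjusted p = 0.244).

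The libraries of the second Sirt7-/- mouse also stood apart in part of the NK cell markers, and were the highest of their stage at both stages in 8 of 13. Ncr1, an NK receptor, had 68.2 and 39.2 normalized counts in pro-B cells of the wild type and 24.8 and 219 in those of Sirt7-/- mice. In pre-B cells it was at 0 in both wild-type libraries and at 0 and 121 in the Sirt7-/- libraries. Eomes, a transcription factor of NK cells, was 85.1 and 73.7, 29.3 and 244, 0 and 0, and 3.20 and 149.6 in the same order of groups. In both genes the second Sirt7-/- mouse was highest at each stage, as it was for Il2rb. Klra1, another NK receptor, was not, with 281 and 317, 208 and 203, 491 and 542, and 435 and 346 in the same order, and it rose from pro-B to pre-B cells in the wild type by 0.79 (limma, adjusted p = 0.0136).

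The summed counts of the 13 NK markers, with Klra1 the most abundant on average, were 1333 and 1272 at the pro-B stage of the wild type and 1291 and 2430.0 at that of Sirt7-/- mice, and 1189.9 and 967 against 1186 and 2295 at the pre-B stage. Wild-type pre-B cells had 7 of the 13 above 0, and the second Sirt7-/- pre-B library had 12. Of 15 T cell markers, 12 fell from pro-B to pre-B cells in the wild type, where 22% of all genes fell, and Cd3e, part of the T cell receptor complex, was at 0 in all 4 pre-B libraries. The second Sirt7-/- pre-B library had 12 of the 15 above 0, against 8 in each of the others, was the highest of its stage in 10, and had a sum of 4106, against 3449 and 3314 in the wild type and 3798 in the first Sirt7-/- library. The second Sirt7-/- pre-B library also held more RNA of pro-B genes than the first, with Dntt at 3838 against 423 and Igll1, the surrogate light chain, at 4122 against 1324. The part of these cells in the level of Il2rb was not tested.

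**Figure D3:**
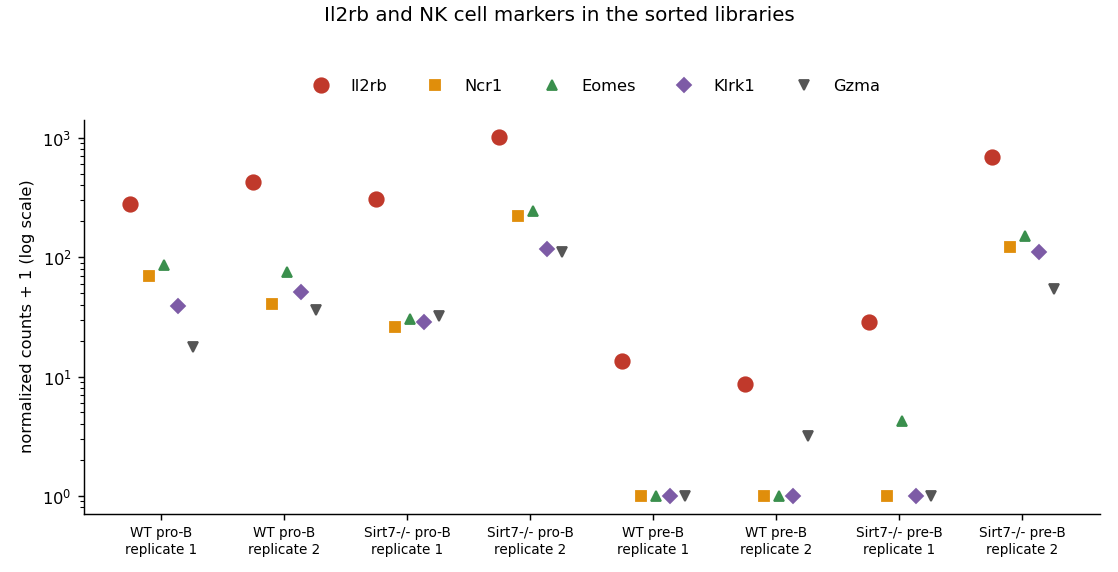
Normalized counts of Il2rb and of the NK cell markers Ncr1, Eomes, Klrk1 and Gzma in the 8 sorted libraries, on a log axis after adding 1, with a symbol for each gene and the libraries side by side. The second Sirt7-/- mouse had the highest Il2rb at each stage, 1007 and 685, and the highest Ncr1, 219 and 121. The markers shown were singled out from a list of 13 after their values were seen. That mouse was highest at both stages in 8 of the 13, and not in Klra1, which is not shown.

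Il2rb in the third table was between 0.86 and 7.78 normalized counts in all 8 libraries, under the minimum of 10, and was not tested. Wild-type cells with EV held 0.92 and 3.69, Sirt7-/- cells 1.84 and 2.75 with EV, 2.14 and 5.25 with Pax5 WT and 0.86 and 7.78 with Pax5 K198R. The pairs overlapped, and no difference was detectable at this depth.

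Il2rg, the gamma chain, rose from pro-B to pre-B cells in both genotypes. At the pro-B stage it had 5568 and 6514 normalized counts in the wild type and 6428 and 6331 without Sirt7. At the pre-B stage the wild type had 13931 and 11695, and 17161 and 14305 were counted without Sirt7. Every pre-B library was above every pro-B library, and the genotypes overlapped in pro-B cells.

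From pro-B to pre-B cells Il2rg rose by 1.08 ± 0.13 (SE) on the log2 scale in the wild type (limma, adjusted p = 0.00109) and by 1.30 ± 0.13 without Sirt7 (limma, adjusted p = 0.000904). The genotypes differed by 0.08 at the pro-B stage (95% interval −0.24 to 0.40, limma adjusted p = 0.986), and the difference at the pre-B stage was 0.30 (interval −0.02 to 0.61, limma adjusted p = 0.399). With EV in Pax5-/- cells Il2rg was 4220.3 and 4233, and between 2706 and 3641 with the 3 forms, below EV in all 6 libraries. The log2 differences from EV, given as a description, were −0.47 for Pax5 WT and −0.46 for Pax5 K198R, beside −0.25 for Pax5 K198Q. No difference between forms passed in limma, with an adjusted p of 1 between Pax5 K198Q and Pax5 WT, 0.991 between Pax5 K198R and Pax5 WT and 0.475 between the mutant forms.

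Il2rg in the third table was 2174 and 2304 in wild-type cells with EV and 2309 and 1929.8 in Sirt7-/- cells with EV. With Pax5 WT it was 2517 and 2389 and with Pax5 K198R 2526 and 2373, both pairs above both pairs with EV. The differences from EV were 0.22 with Pax5 WT (limma, adjusted p = 0.603) and 0.21 with Pax5 K198R (limma, adjusted p = 0.385), and neither passed.

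Stat3 varied little within groups of the sorted cells, where the higher library had at most 1.04 times the count of the lower. At the pro-B stage it had 3863 and 4028 normalized counts in the wild type and 3880.5 and 3766 without Sirt7, and at the pre-B stage 7111 and 7427 against 6853 and 6667. From the first to the second stage it rose by 0.88 ± 0.08 (SE) on the log2 scale in the wild type (limma, adjusted p = 0.000367) and by 0.82 ± 0.08 without Sirt7 (limma, adjusted p = 0.000715). The genotypes differed by −0.05 at the pro-B stage (95% interval −0.23 to 0.14, limma adjusted p = 0.987), and the difference at the pre-B stage was −0.10 (interval −0.29 to 0.08, limma adjusted p = 0.603). The pre-B pairs did not overlap and the pro-B pairs did.

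Among Pax5-/- cells Stat3 was 6661 and 6835 normalized counts with EV, 5475 and 5638 with Pax5 K198Q, 5148 and 4266 with Pax5 WT and 4229 and 4045 with Pax5 K198R. The pairs did not overlap, and EV was highest and Pax5 K198R lowest. The log2 differences from EV were −0.28, −0.53 and −0.71 in that order, as a description. Between forms Stat3 was lower with Pax5 K198R than with Pax5 K198Q by 0.43 (SE 0.10, interval −0.67 to −0.19), which passed only with the replicate block (limma, adjusted p = 0.0639 without and 0.0156 with it). Pax5 K198R and Pax5 WT differed by −0.18 (interval −0.42 to 0.06, limma adjusted p = 0.584).

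Stat3 in the third table was lowest with EV and highest with Pax5 K198R. It was 2711 and 2952 in wild-type cells with EV and 3626 and 3106 in Sirt7-/- cells with EV, and 3499 and 4248 with Pax5 WT and 4049 and 4786 with Pax5 K198R. The wild-type pair lay below all others, the Pax5 K198R pair above both libraries with EV, and the Pax5 WT pair overlapped its neighbours. No difference passed, with Pax5 K198R above EV by 0.39 ± 0.14 (SE, log2 scale, limma adjusted p = 0.179) and Sirt7-/- above wild-type cells by 0.25 (limma, adjusted p = 0.726).

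Over all genes tested, the share called at an adjusted p under 0.05 set the background for the members. In the sorted cells it is set beside the 3 members other than Il2ra, which these comparisons chose. Against the wild type 0 of 3 were called in Sirt7-/- pro-B cells and 0 in pre-B cells, where limma called 0.0623% and 0.085% of 17649 genes. At an unadjusted p under 0.05 limma gave 2405 genes in the pre-B comparison. From pro-B to pre-B cells 3 of 3 were called in the wild type and 2 of 3 in Sirt7-/- cells, where 40.2% and 35.7% of genes were called, so that a call there was common. The interaction of stage and genotype called 0 of 3, with 0.00567% of genes.

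Against EV in Pax5-/- cells 3 of 4 members were called under Pax5 WT, 0 under Pax5 K198Q and 3 under Pax5 K198R, among 3.25%, 0.922% and 9.92% of 13345 genes, and nothing is read from these counts because the choice of genes used these comparisons. Between forms, of the 3 members other than Il2rb, 0 were called for Pax5 K198Q with Pax5 WT (0.0225% of genes), 0 for Pax5 K198R with Pax5 WT (2.87%) and 0 for Pax5 K198R with Pax5 K198Q (5.01%). With the replicate block these counts were 1, 0 and 2, where 29, 1004 and 1749 of the 13345 genes were called. Of the 4 members 3 were tested in the third table among 13651 genes. There 0 of 3 were called for Sirt7-/- with wild-type cells (0.557% of genes), 0 for Pax5 WT with EV (0.0366%), 1 for Pax5 K198R with EV (4.83%) and 0 for Pax5 K198R with Pax5 WT (0.425%).

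Pax5 peaks within 10 kb were found for 1 or 2 of the 4 members in each list. The 6 lists held 10646 and 11830 peaks with Pax5 WT, 3750 and 3957 with Pax5 K198Q and 12158 and 13997 with Pax5 K198R, and 11 of these lay within 10 kb of a member. Stat3 had such a peak in all 6 lists, Il2ra in 2, Il2rb in 1 and Il2rg in 0. Over 13283 expressed genes, between 25.8% and 26.4% had one within that distance in the Pax5 K198Q lists and between 52.7% and 61.9% in the others, so that the count of members is not set apart from that of other genes.

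At the start of Stat3, within chr11:100939203-100939967 and covering the printed promoter sequence, the fold enrichment over input was 4.86 and 5.37 with Pax5 WT, 4.35 and 4.48 with Pax5 K198Q and 9.59 and 3.41 with Pax5 K198R. The 2 lists of Pax5 K198R gave the highest and the lowest value, so that the forms could not be told apart there. Their −log10 q ranged from 5.31 to 27.9.

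Upstream of Il2rb, at the printed sequence and within chr15:78510144-78510579, the fold enrichment was 6.32 and 10.3 with Pax5 WT, 3.62 and 7.88 with Pax5 K198R and 5.62 in the second list of Pax5 K198Q, with no peak in its first list. Il2rb was the nearest start of a gene to this peak, 15.1 kb away. The lists of Pax5 WT and Pax5 K198R overlapped in their values. Another peak, in 4 lists, lay 77.6 kb upstream of Il2rb and 135 bp from the start of Rac2, whose window held the Pax5 core.

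Upstream of Il2ra, at the printed sequence and within chr2:11623138-11623492, the fold enrichment was 5.38 and 6.34 with Pax5 WT and 5.80 and 4.96 with Pax5 K198R, and neither Pax5 K198Q list had a peak. A peak 12.6 kb upstream, within chr2:11629737-11630229, had a fold of 5.65 and 5.87 with Pax5 WT and 3.79 in 1 list of Pax5 K198R. One in an intron of Il2ra, 10.8 kb past its start and within chr2:11653425-11653667, had a fold of 5.01 in 1 list of Pax5 WT and 5.09 in 1 of Pax5 K198R. The region present in all 6 lists near Il2ra lay 90.1 kb upstream, at Pfkfb3, with folds between 8.62 and 20.8. The only peak within 100 kb of Il2rg lay 45.7 kb from its start, in 1 list. The Pax5 K198Q lists were shorter than the others, and a missing peak there is not shown to be a difference in binding.

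**Figure D4:**
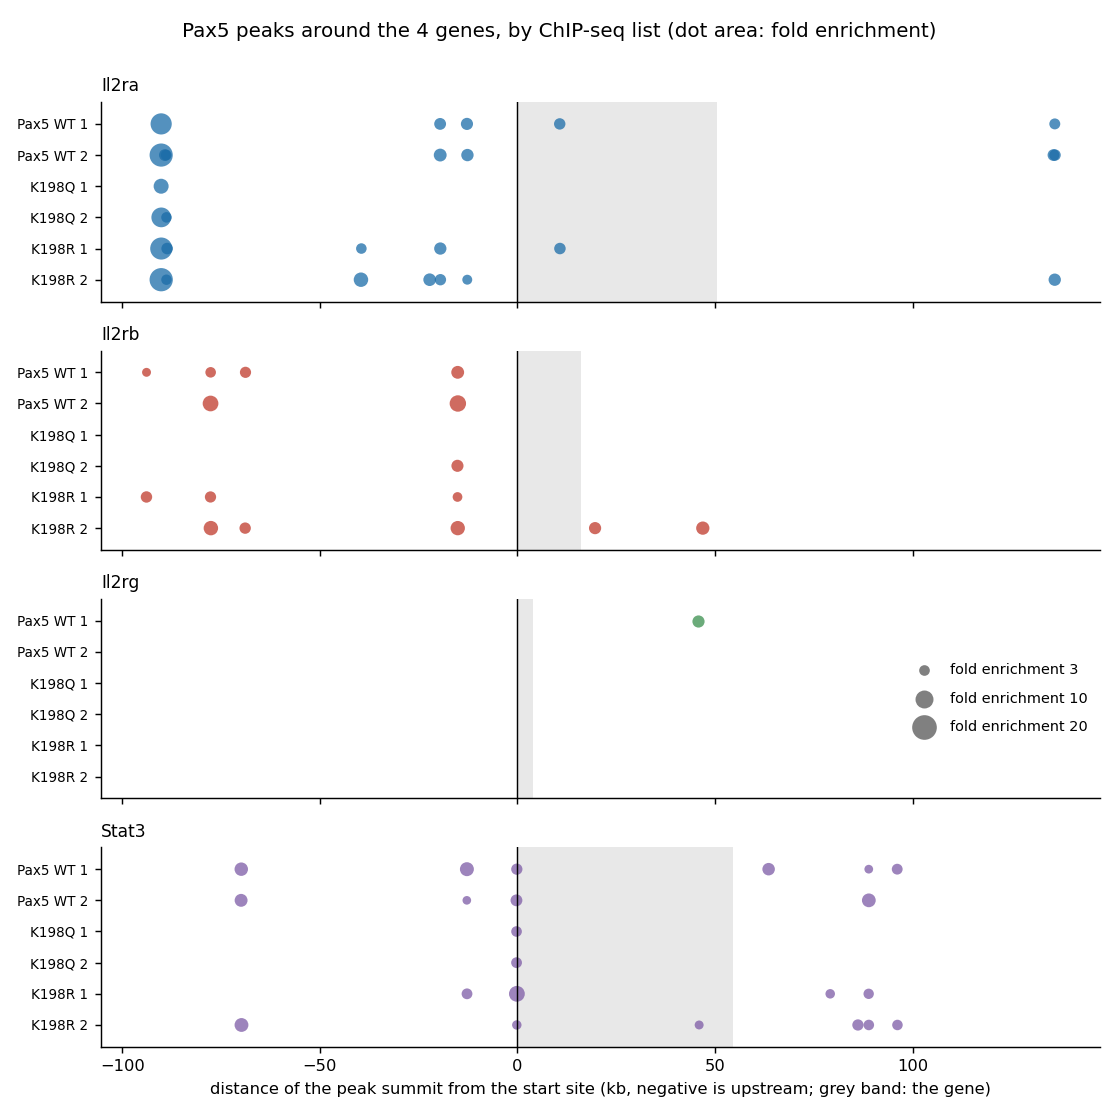
Pax5 peaks near each member in the 6 lists, with the distance of the summit from the start of the gene in kb on the horizontal axis, a line for each list, the gene as a grey band and the fold enrichment over input as the area of the point. Stat3 had a peak at its start in every list, Il2rb one 15.1 kb upstream in 5 lists, and Il2rg a single peak.

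The other genes of the pathway were described from 7 lists with 53 genes, of which 48, 46 and 47 were tested in the 3 tables. In wild-type cells 20 rose and 7 fell from pro-B to pre-B cells, and in Sirt7-/- cells 21 rose and 7 fell. The median log2 change was 0.32 and 0.40, beside −0.04 and −0.04 over all genes tested, and 56.2% and 58.3% of the tested pathway genes were called, as were 40.2% and 35.7% of all genes. Between Sirt7-/- and wild-type sorted cells limma called 0 at either stage, beside 0.0623% and 0.085% of all genes. In pre-B cells DESeq2 called 4 of the 10 targets of STAT5 and STAT3. It also called 1 gene each of the partner receptor chains, the JAK kinases and the other STATs, and 720 of all genes.

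Among the partners of the gamma chain, Il4ra rose by 2.60 and 2.74 on the log2 scale in wild-type and Sirt7-/- cells and Il21r by 3.39 and 3.68. In the wild type Il21r stood at 653 and 631 normalized counts before and at 8337 and 5419.9 after this transition. Of the kinases, Jak3, which binds the gamma chain, fell by 1.37 in the wild type and by 0.63 in Sirt7-/- cells, and Jak1 rose by 0.45 and 0.52. Socs1, an inhibitor that STATs induce, rose by 2.73 and 2.92, while Socs2 fell by 1.44 and 1.48. Myc, a target of STAT5 in other settings, fell by 3.65 in the wild type and by 2.21 in Sirt7-/- cells, and Pim2, a kinase, rose by 2.72 and 2.29. The difference between the stage effects of the genotypes was called for 0 of 48 pathway genes in limma. DESeq2 called it for 1 of the JAK kinases. The second Sirt7-/- pre-B library, which held more RNA of pro-B genes, is part of these values.

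In Pax5-/- cells few genes of the pathway were called, as of all genes. Against EV 2 of 46 genes rose and 1 fell with Pax5 WT, 1 rose with Pax5 K198Q, and 2 rose and 2 fell with Pax5 K198R. These are 6.52%, 2.17% and 8.7% of the pathway genes, beside 3.25%, 0.922% and 9.92% of all genes. Il7r, the partner of the gamma chain in the IL-7 receptor, was 1286 and 1293 normalized counts with EV, 3614 and 3057.5 with Pax5 WT, 3758 and 2796 with Pax5 K198Q and 2019 and 1799.6 with Pax5 K198R. All libraries with a form lay above those with EV, and those with Pax5 K198R below the other forms. It rose with Pax5 WT by 1.37 (limma, adjusted p = 0.00414) and with Pax5 K198Q by 1.33 (limma, adjusted p = 0.0088), and was lower with Pax5 K198R than with Pax5 WT by 0.80 (limma, adjusted p = 0.0393). Il6st, the shared chain of the IL-6 family that acts through STAT3, fell with Pax5 K198R by 0.77 (limma, adjusted p = 0.0113), and Stat5b rose by 0.38 (limma, adjusted p = 0.036).

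Il7r in the third table was 10843 and 10445 normalized counts in wild-type cells with EV, 5361 and 6155 in Sirt7-/- cells with EV, 5301 and 5873 with Pax5 WT and 2431 and 2834 with Pax5 K198R. The wild-type pair was highest and the Pax5 K198R pair lowest, as for Il2ra. Il7r was lower in Sirt7-/- cells by 0.89 (limma, adjusted p = 0.0234) and with Pax5 K198R against EV by 1.13 (limma, adjusted p = 0.00456). Of the 47 pathway genes, 1 rose and 2 fell in Sirt7-/- cells, 0 were called with Pax5 WT, and 1 rose and 2 fell with Pax5 K198R, among them Pim1, a kinase and STAT5 target, by 1.28 (limma, adjusted p = 0.0053). The first and the last count are 6.38% of the pathway genes each, beside 0.557% and 4.83% of all genes.

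By Pearson's r over the 24 libraries, on the log2 scale with each gene centred within its table, across 10279 genes tested in all 3 tables and without predicted genes, the genes most like Il2ra were Myo1c (r = 0.943), Wdfy3 (0.94) and Clint1 (0.936). Those most like Il2rb were Osbpl3 (0.901), Nedd4 (0.899) and Ppfia4 (0.896). Those most like Il2rg were Il4i1 (0.95), Icosl (0.948) and H2-Oa (0.933), and those most like Stat3 were Cmah (0.936), Notch2 (0.936) and Kdm7a (0.934). Within a single table r was lower for some of them, with 0.076 for Osbpl3 and 0.0635 for Icosl in the third table and 0.454 for Wdfy3 in Pax5-/- cells. The points share the groups of 3 tables, and 7090 genes were called between the wild-type stages alone, so that these values only describe likeness of pattern.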

How the data were processed

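RNA was sequenced from 24 libraries and Pax5-bound DNA from 6, and the 6 input libraries were not used here. Salmon was run by the authors on mm10 with GC bias corrected, and Tximeta imported its estimates. The deposited values are counts that the authors normalized in DESeq2, and they were treated as a signal. All values (100%, within 0.001 of a whole number) of the sorted table could be turned back into reads, from 50004827 to 55536608 per library. Libraries of the Pax5-/- table summed to 28865461 to 30520853 normalized counts and those of the third to 27814214 to 30160880, without such recovery. At most 0.24% and 0.25% of their values turned into whole reads in this way. For the peak lists the authors used Bowtie2, discarded duplicates and ran MACS2 on each sample with its input. These deposited lists hold the fold enrichment at each summit, a ratio, and −log10 of the q-value.

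Every gene that reached 10 normalized counts in 2 of the 8 libraries of its table was analysed as log2 of the count plus 1. limma 3.58.1 (R 4.3.3) was fitted to all 4 groups together with a mean-variance trend, and p-values of the 15 comparisons were adjusted by Benjamini-Hochberg over all tested genes. A gene was called at an adjusted p under 0.05. An exact test on 2 against 2 libraries has a smallest p of 0.33. The alternatives were edgeR 4.0.16 and DESeq2 1.42.0 on the recovered reads, another pseudocount, no filter, equal totals and a block for the replicate number. Others were a block for the mouse between the sorted stages, a fit to the compared groups only, and leaving out each library. On simulated data made from the sorted table with 17649 genes, limma recovered 85 of 97 genes changed by a log2 fold of 1. It recovered 100 of 103 changed by 2, with 12 false calls. The simulation gave all genes the same dispersion and no effect of the mouse. It does not show how often a change would be called in genes as uneven between replicates as Il2rb. Fold changes after adding 1 understate the change of low genes. The mouse pairs the sorted stages by label. In the other tables the replicate numbers pair the libraries by their deviations from the group means, whose correlations lay between 0.422 and 0.615 in Pax5-/- cells and between 0.212 and 0.487 in the third table.

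The members and gene lists were chosen with earlier results of these data known. The genes named are the 4 members, Sirt7 and Pax5, up to 4 called genes of each pathway or marker list and its most abundant gene, and the 3 genes most correlated with each member. Markers named beyond this rule, such as Ncr1 and Eomes, are members of the lists and were singled out after their values were seen. In the lists 1 gene was counted that is not reported here by name. A peak was assigned to a member within 10 kb or 100 kb of the gene, and peaks sharing 1 bp were counted as 1 region. Positions follow GENCODE M21 on mm10, and promoters follow RefSeq.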

Additional observations from a re-analysis of the deposited data

Results flagged for a closer look

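For Il2ra, Stat3 and Il2rg the libraries with a form of Pax5 lay on one side of those with EV in Pax5-/- cells and on the other side in Sirt7-/- cells, with no overlap in either setting. The share of all genes with such a pattern was not counted. With 2 libraries against 2 an exact test has a smallest p of 0.33, so that pairs lying apart are weak evidence. Il2ra was higher with Pax5 K198R than with EV by 0.62 on the log2 scale in Pax5-/- cells and differed by −2.61 in Sirt7-/- cells. Stat3 differed by −0.71 with Pax5 K198R in Pax5-/- cells and by 0.39 in Sirt7-/- cells. Il2rg differed by −0.46 with Pax5 K198R and by −0.47 with Pax5 WT in Pax5-/- cells, and by 0.21 and 0.22 in Sirt7-/- cells. The values in Pax5-/- cells are descriptions, and in Sirt7-/- cells only that of Il2ra passed (limma, adjusted p = 0.0196), while Stat3 (0.179) and Il2rg (0.385 and 0.603) did not. The difference between the settings was not tested, and the tables were fitted separately. The settings also differed in the Pax5 that the cells already had, because Sirt7-/- cells kept their own Pax5 gene. They differed as well in strain, in the Sirt7 genotype and, by the methods of the study, in the tissue the cells came from. These differences cannot be told apart.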

How the results depend on the processing

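Of 348 values under settings other than leaving out a library, 339 were counted as unchanged, and of 240 with 1 library left out 210 were. A tested difference counted as unchanged when it kept its direction and its side of the threshold. A described difference counted as unchanged when it moved by less than its SE, whatever its call. The cause of the other changes was not tested. Counts of members called include Il2ra and Il2rb also where the comparison chose them. In Sirt7-/- against wild-type pro-B cells the count of members called was 1, and 0 when only the groups compared were fitted or without both libraries of the second Sirt7-/- mouse, a setting chosen after seeing the data, where Il2rb was −0.18. In pre-B cells it was 0 and with DESeq2 2. With the same total per library Il2rg differed by −0.022 between Pax5 K198R and Pax5 WT in Pax5-/- cells. Peaks at the loci numbered 11 within 10 kb, 10 at a −log10 q of at least 5, and 65 within 100 kb.

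With the replicate block 1 member was called in Pax5-/- cells for Pax5 K198Q with Pax5 WT and 1 for Pax5 K198R with Pax5 WT. For Pax5 K198R with Pax5 K198Q 3 were called, and without the block these counts were 0, 0 and 1. Of all genes 29, 1004 and 1749 were called with the block, in place of 3, 383 and 668. The block changed no other tested call of a member. Against EV, where calls are a description, the block moved the count from 3 to 4 for Pax5 WT and for Pax5 K198R, by adding Il2rg. In the sorted cells same-numbered libraries correlated between −0.0302 and 0.15. A block for the mouse, which gave both stages, changed no tested stage call of a member.

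With 1 library left out, which leaves a group of 1 that is assumed to vary like the others, the members called ranged from 0 to 1 in Sirt7-/- against wild-type pro-B cells and in pre-B cells. In Pax5-/- cells they ranged from 0 to 1 for Pax5 WT with EV (3 with all libraries), for Pax5 K198R with Pax5 WT and for Pax5 K198R with Pax5 K198Q. In the third table they were 0 for Pax5 K198R with EV and from 0 to 1 for Pax5 K198R with Pax5 WT. Differences that changed sign ranged, for Il2rb, from −0.18 to 1.54 between genotypes in pro-B cells and from −4.27 to 0.31 between stages in Sirt7-/- cells. For Il2rg they ranged from −0.03 to 0.20 between genotypes in pro-B cells, from −0.17 to 0.19 for Pax5 K198R with Pax5 WT in Pax5-/- cells, from −0.047 to 0.043 in Sirt7-/- cells, and from −0.21 to 0.045 between genotypes in culture. For Il2ra with Pax5 WT against EV in Sirt7-/- cells they ranged from −1.40 to 0.068.

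Counts of all genes called depended on the setting. Against the wild type they were 11 in pro-B cells (0 to 126 over the settings) and 15 in pre-B cells (0 to 720, the highest both with DESeq2), 7090 (4700 to 7811) and 6293 (3717 to 7006) between stages and 1 (0 to 101) for the interaction. In Pax5-/- cells they were 434 (89 to 1343), 123 (31 to 363) and 1324 (567 to 2834) against EV for the wild-type, glutamine and arginine forms, and 3 (0 to 29), 383 (21 to 1004) and 668 (32 to 1749) between forms. In the third table they were 76 (3 to 288), 5 (0 to 268), 659 (63 to 1588) and 58 (2 to 314), the highest with the replicate block. Low counts limit Il2rb in the third table.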
